A study of Mus musculus with 9 samples.

Results

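The genes described here are the Egr transcription factors Egr1, Egr2, Egr3 and Egr4 and the Nab corepressors Nab1 and Nab2, 6 of the 18193 genes measured. They are read by 10 of the 34944 probe sets assigned to a single gene. Members were found by gene symbol in the array's probe annotation, and the family was selected on the measured values of Egr1, whose log2 level differed more between IR and NIR than that of any other gene. The difference of Egr1, and every comparison of the members between IR and NIR, is therefore given as a description without a test.

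RNA came from SCCVII, a mouse tumour line from an oral squamous cell carcinoma that arose spontaneously (the labels give the mouse strain as CH3). All groups descend from the parental line, PA, which was kept in standard culture. NIR cells were recovered from tumours that PA cells formed in stroma without irradiation and are labelled as poorly invasive and metastatic. IR cells were recovered from tumours formed in stroma irradiated before injection; the labels call those tumours highly hypoxic and say that IR lines stayed invasive and metastatic when grown in normoxia. Each group has 3 arrays, and the labels do not say whether these came from separate tumours, lines or dishes, nor give a radiation dose, host age or time, so the spread between arrays may be technical.

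Egr proteins are zinc finger transcription factors that bind GC-rich sites in promoters. Egr1 is an immediate early gene: growth factors, serum and stress switch it on within minutes through the Ras-ERK cascade, which acts on serum response factor and its ternary complex partners at CArG boxes, the A/T-rich elements of its promoter. Nab1 and Nab2 carry no DNA-binding domain of their own; they dock on Egr1, Egr2 and Egr3 and repress or tune their targets, Nab2 by recruiting the NuRD chromatin remodelling complex, and Nab2 is itself a known Egr1 target, which closes a feedback loop.

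Sequence upstream of the members is shown because it carries the sites through which Egr factors and their inducers are known to act. The RefSeq promoter windows of mouse build GRCm38.p6 hold 250 bases before and 50 after a transcription start, and 4 of the 6 members had one, Egr1 and Egr3 having no entry. The Egr consensus GCGTGGGCG was searched on both strands, together with its first 8 letters, GCGTGGGC, which every match of the longer motif contains. Below, the bases before the start of Nab1 and Nab2 are in lower case with Egr matches in capitals, and the bases around the CArG boxes of Egr2 have that box in capitals, all 5′ to 3′ on the gene's strand.
Nab1, chr1:52500449-52500698, minus strand: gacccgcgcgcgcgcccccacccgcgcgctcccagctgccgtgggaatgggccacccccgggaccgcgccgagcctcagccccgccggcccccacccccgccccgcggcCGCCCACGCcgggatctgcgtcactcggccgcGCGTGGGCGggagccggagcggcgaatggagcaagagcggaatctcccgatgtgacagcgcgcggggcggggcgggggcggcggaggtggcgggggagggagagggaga
Nab2, chr10:127666704-127666953, minus strand: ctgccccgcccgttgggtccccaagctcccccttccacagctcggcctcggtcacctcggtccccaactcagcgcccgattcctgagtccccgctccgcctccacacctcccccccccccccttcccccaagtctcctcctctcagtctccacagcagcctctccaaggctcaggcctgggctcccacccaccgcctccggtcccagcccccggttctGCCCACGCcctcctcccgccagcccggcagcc
Egr2 upstream start, chr10:67537484-67537513, plus strand: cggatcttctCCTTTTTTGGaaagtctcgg
Egr2 downstream start, chr10:67537787-67537816, plus strand: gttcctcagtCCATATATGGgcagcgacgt

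Nab1 held the longer motif at 2 places, in reverse orientation at 141 to 133 bases before its start and in forward orientation at 109 to 101 bases before it. Nab2 held only the 8-letter form, in reverse orientation at 32 to 25 bases before its start. Of all 32851 windows 0.612% held the longer motif and 1.63% the shorter one. The Nab windows are rich in G and C, which are the main letters of the motif, at 81.7% for Nab1 and 74% for Nab2 against a median of 52.7% over all windows. A CArG box was found in 4 of the 5 Egr2 windows, as 2 distinct sites, and in 1.63% of all windows. The single Egr4 window held neither an Egr motif nor a CArG box. These matches describe the letters and do not show that a factor is bound there in SCCVII cells.

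Levels are RMA values in log2 units, so a difference of 1 is a doubling of signal. The arrays were alike in overall level, with medians from 4.44 to 4.52. The median probe set averaged 4.48, and probe sets below it are treated here as near background, since the values used carry no detection calls. Levels of different probe sets cannot be set against each other on such arrays, so each member is compared only with itself across arrays and, as a rough mark of background, with that median.

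Egr1 stood at a different level in each group. It read 8.62, 8.51 and 9.02 in the IR arrays, 6.94, 6.34 and 6.97 in the PA arrays and 4.26, 5.18 and 4.90 in the NIR arrays. Every IR array was above every PA array and every PA array above every NIR array. The order IR, PA, NIR was separated by gaps of 1.54 between the lowest IR and the highest PA array and 1.16 between the lowest PA and the highest NIR array, both larger than the widest range within a group, 0.91 in NIR. The group means were 8.72 ± 0.27 in IR, 6.75 ± 0.36 in PA and 4.78 ± 0.47 in NIR (SD, n = 3 each). In NIR it was thus close to the median probe set, and NIR1 lay below it.

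On this scale the parental line lay midway. Egr1 was 1.97 higher in IR than in PA on the log2 scale (SE 0.23, 95% interval 1.47 to 2.47), a 3.91-fold difference, and the NIR level lay below the parental one by a nearly equal amount (-1.97, SE 0.23, 95% interval -2.47 to -1.47, 3.92-fold). These comparisons use the same PA arrays, and the IR and NIR arrays by which Egr1 was picked, so they carry no test here. RMA compresses differences near background, so folds against NIR are folds of signal and can understate those of the RNA. By size Egr1 ranked 1 of 18193 genes between IR and NIR (3.94), where the next gene, the secreted glycoprotein gene Fstl1, differed by 1.87. Its rank was 7 for IR minus PA and 9 for NIR minus PA. In a bulk extract, fewer cells that express a gene and less RNA per cell cannot be told apart.

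**Figure D1:**
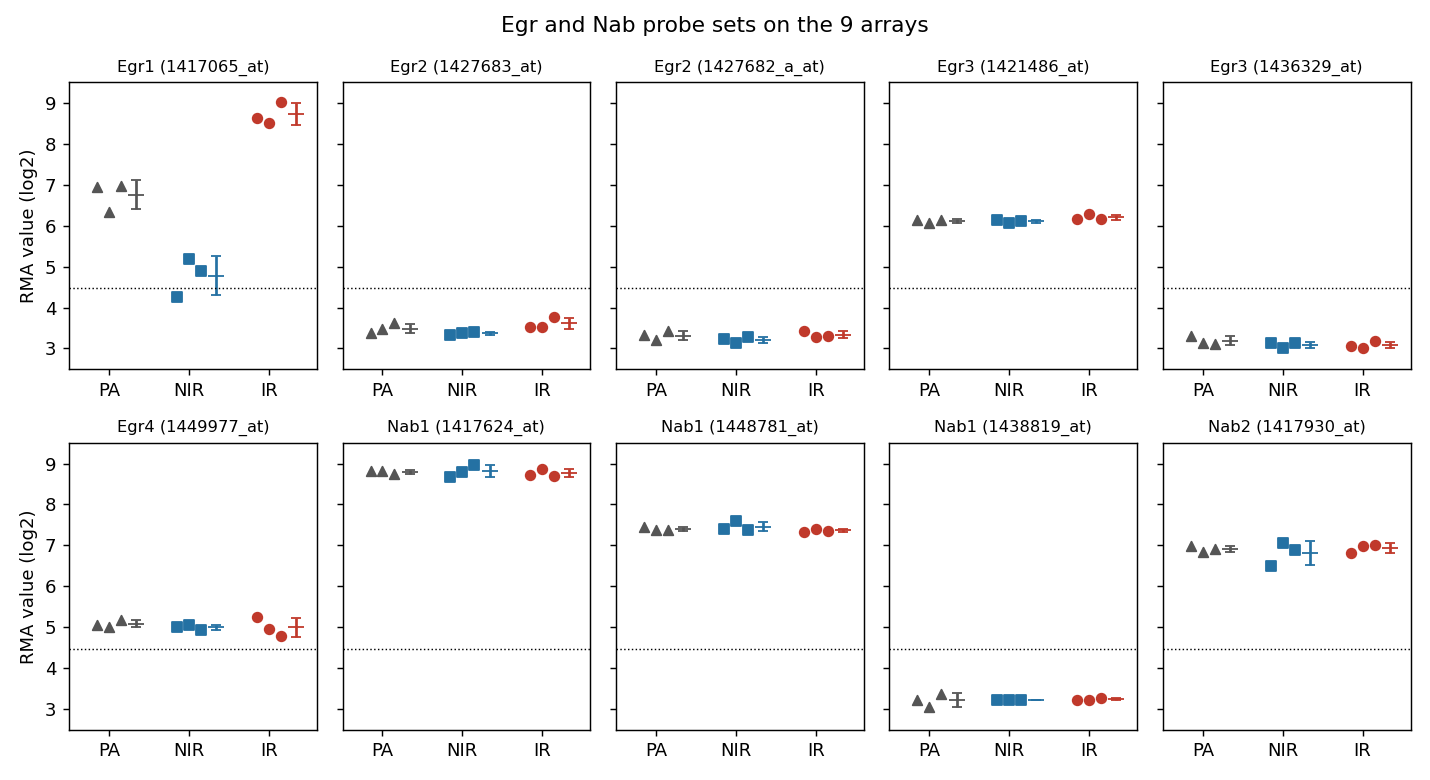
RMA values (log2) of the 10 Egr and Nab probe sets on the 9 arrays, by group: triangles PA, squares NIR, circles IR, with the mean ± SD (n = 3) beside the points and a dotted line at the median probe set, 4.48. Egr1 separates the groups, from 4.26 in the lowest NIR array to 9.02 in the highest IR array. The widest span of any other probe set is 0.58, for Nab2, against 0.37 for the median gene.

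Egr1 also varied more among arrays of a group than most genes. Its pooled SD within groups was 0.372, above that of 99.6% of genes, against 0.109 for the median gene. Among the other members the pooled SD ran from 0.0528 for Egr3, at percentile 6.49, to 0.191 for Nab2, at percentile 91.2. The difference between IR and NIR without a single array ran from 3.68 without NIR1 to 4.14 without NIR2, and was 3.79 without IR3, the array with the most Egr1.

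None of the relatives of Egr1 passed against the parental line. Egr2, the factor that drives myelination in Schwann cells and also acts in T cells and macrophages, was near background on each of its probe sets. The brighter read 3.53, 3.53 and 3.77 in IR, 3.32, 3.38 and 3.40 in NIR and 3.37, 3.48 and 3.61 in PA. IR and NIR arrays did not overlap on it, though all lay below the median probe set, and the difference of the means was 0.24. The dimmer probe set read 3.13 to 3.43 over all 9 arrays and its IR and NIR arrays overlapped. Egr2 did not pass against the parental line (IR minus PA 0.12, 95% interval -0.07 to 0.32, limma adjusted p = 0.779; NIR minus PA -0.12, 95% interval -0.31 to 0.08, adjusted p = 0.661).

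Egr3, which acts downstream of receptors in T cells, muscle spindles and neurons, was the steadiest member. Its brighter probe set read 6.15, 6.28 and 6.17 in IR, 6.14, 6.07 and 6.12 in NIR and 6.14, 6.06 and 6.14 in PA, a span of 0.22 over the 9 arrays against 4.75 for Egr1. The IR arrays lay just above the other groups, by 0.09 on average over PA (95% interval -0.06 to 0.23, limma adjusted p = 0.816), and NIR differed from PA by -0.01 (95% interval -0.16 to 0.14, adjusted p = 0.981). The dimmer Egr3 probe set, at 3.01 to 3.31, was near background and gave -0.10 for IR minus PA, so the sign depends on the probe set.

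Egr4, a member best known from neurons and the germ line, read 5.24, 4.97 and 4.79 in IR, 5.01, 5.05 and 4.93 in NIR and 5.06, 5.01 and 5.18 in PA. The groups overlapped, and IR1 and IR3 were the highest and lowest of all 9 arrays. It passed neither in IR against PA (-0.08, 95% interval -0.31 to 0.14, limma adjusted p = 0.903) nor in NIR against PA (-0.08, 95% interval -0.31 to 0.15, adjusted p = 0.813). For Egr3 and Egr4 the ends of the 95% intervals nearest to the Egr1 changes were 0.23 above and -0.31 below the parental level, folds of signal of at most 1.24. The interval of Egr2 does not bound the fold of its RNA, since RMA compresses differences near background. The different response of Egr1 and its relatives was itself not tested, since Egr1 was picked for its response.

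The corepressors read above the median probe set in all groups, and neither passed against the parental line. Nab1 on its main probe set read 8.72, 8.87 and 8.70 in IR, 8.68, 8.79 and 8.97 in NIR and 8.82, 8.81 and 8.75 in PA. The groups overlapped throughout. The second Nab1 probe set, at 7.33 to 7.59, also overlapped between all groups, and the third was near background at 3.05 to 3.38. Nab1 differed from PA by -0.03 in IR (95% interval -0.22 to 0.16, limma adjusted p = 0.970) and by 0.02 in NIR (95% interval -0.17 to 0.21, adjusted p = 0.957).

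Nab2, the feedback target of Egr1 with the 8-letter site shown above, read 6.81, 6.99 and 7.02 in IR, 6.49, 7.07 and 6.90 in NIR and 6.99, 6.83 and 6.92 in PA. The groups overlapped, with NIR1 the lowest and NIR2 the highest of the 9 arrays. NIR1 was also the array with the least Egr1, but NIR2 held less Egr1 than any PA or IR array. The difference of Nab2 from PA was 0.03 in IR (SE 0.13, 95% interval -0.25 to 0.31, limma adjusted p = 0.980) and -0.09 in NIR (SE 0.13, 95% interval -0.37 to 0.19, adjusted p = 0.835). The intervals leave room for changes of up to 1.24-fold in IR and 1.29-fold in NIR against the parental level. Between IR and NIR, where the Egr1 signal differed by 3.94, the Nab2 means were 6.94 ± 0.11 and 6.82 ± 0.30 (SD, n = 3 each).

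**Figure D2:**
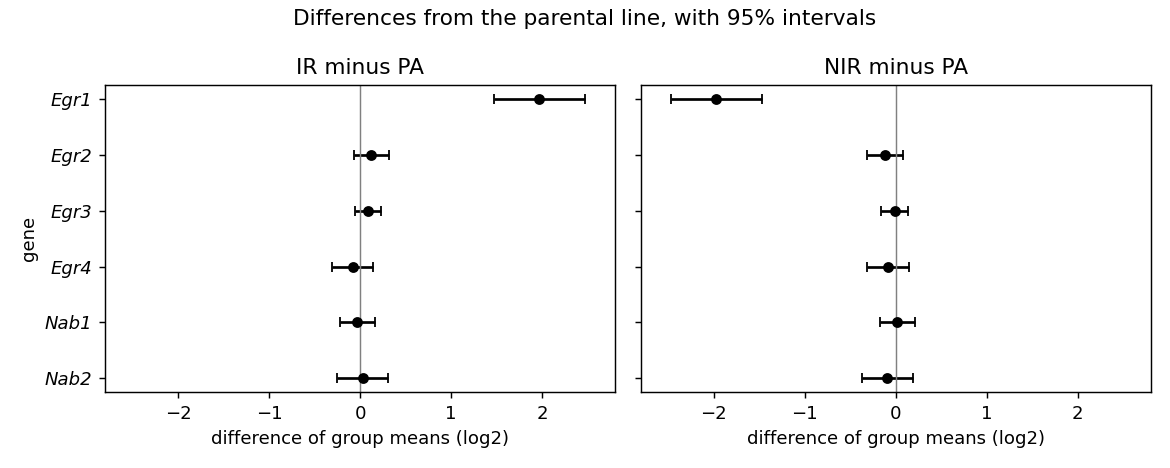
Differences of group means (log2) from the parental line for the 6 genes, IR minus PA on the left and NIR minus PA on the right, with 95% intervals from the fit over all genes. Egr1 lies at 1.97 and -1.97, and the intervals of Egr2, Egr3, Egr4, Nab1 and Nab2 include 0 in each panel.

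Of the 5 members other than Egr1, limma called none in either comparison with PA (none at an unadjusted p below 0.05), where 1.06% of all genes passed for IR minus PA and 1.3% for NIR minus PA. The members were part of the fit between IR and NIR, where 1.65% of all genes passed, but no test of a member is reported for it. Groups did not overlap for 3 members between IR and NIR (Egr1, Egr2 and Egr3), for 2 between IR and PA (Egr1 and Egr3) and for Egr1 alone between NIR and PA, where 18.1%, 14.7% and 15.5% of all genes did not overlap. Nothing is read from the counts that include Egr1, which was chosen by its values. No filter on signal was applied, and 5 of the 6 genes, all but Egr2, averaged above the median probe set.

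Among known targets of Egr factors, 1 passed in 1 of the 3 comparisons. Of 29 genes whose promoters Egr proteins are known to bind, 25 were measured, and by limma none passed between IR and NIR (3 had an unadjusted p below 0.05, all higher in IR), where 1.65% of all genes passed. A count of 0 among 25 genes is close to that share and is no result about the targets. Their median difference was 0.01, against 0.001 over all genes, and 18 of the 25 averaged above the median probe set. None of the 25 passed between IR and PA either (4 at an unadjusted p below 0.05, 2 in each direction), where 1.06% of all genes passed. The share of all genes at an unadjusted p below 0.05 is not given here. Counts at that level, for this list and the others, are therefore no result about the lists. For NIR minus PA 1.3% of all genes passed. Between NIR and PA 1 fell, Id3, an inhibitor of basic helix-loop-helix factors, with a log2 difference of -0.68 (SE 0.13, limma adjusted p = 0.0291). Id3 read 9.09, 8.86 and 9.28 in NIR against 9.71, 9.86 and 9.70 in PA, and 9.11, 9.03 and 9.52 in IR, so its IR level, where Egr1 was high, was also below PA (-0.54, limma adjusted p = 0.112). The Id3 call was lost without NIR1, NIR2 or any PA array (adjusted p by limma at most 0.143, without PA2). Without IR3, Id3 also passed in IR against PA (-0.69, adjusted p = 0.0167).

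The other targets did not pass, and those with the widest differences moved in different orders. The heparanase gene Hpse, whose enzyme cleaves heparan sulphate in the matrix, read 8.99, 9.08 and 9.62 in IR, 8.34, 8.87 and 8.84 in NIR and 9.24, 9.42 and 9.53 in PA. Its differences were 0.55 for IR minus NIR (limma adjusted p = 0.136) and -0.71 for NIR minus PA (adjusted p = 0.0794), and the latter passed without IR3 (adjusted p = 0.0221). Pdgfa, a platelet-derived growth factor chain, read 7.29, 7.49 and 7.36 in IR, above all NIR arrays (7.06 to 7.24) and all PA arrays (6.96 to 7.17), without passing (0.23 against NIR, limma adjusted p = 0.198; 0.32 against PA, adjusted p = 0.140). Fn1, which encodes the matrix protein fibronectin, read 9.70, 9.75 and 10.03 in IR, 9.88, 10.03 and 9.46 in NIR and 9.33, 9.23 and 9.62 in PA, above PA on average in IR (0.43, limma adjusted p = 0.352) and in NIR (0.40, adjusted p = 0.304), which is not the order of Egr1. The angiogenic factor gene Vegfa was 0.28 higher in IR than in NIR (limma adjusted p = 0.229), and F3, the tissue factor gene, was below PA in IR (-0.30, adjusted p = 0.572) and in NIR (-0.34, adjusted p = 0.339). Fn1, Vegfa and F3 were named after their values were seen. Cd44, a hyaluronan receptor, was bright and level at 11.1, 11.09 and 11.11 in the means of IR, NIR and PA.

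Other immediate early genes moved in the direction of Egr1 in part. Of 30, 6 rose, 1 fell and 23 did not pass between IR and NIR, where 1.65% of all genes passed. An unadjusted p below 0.05 by limma was reached by 14, of which 11 were higher in IR. The median difference was 0.18 with 25 positive values, against a median of 0.001 over all genes. Those that rose by most were Ccn1, the matricellular protein gene (1.71, limma adjusted p = 2.56e-06), Ier2, a nuclear early response gene (0.80, adjusted p = 0.00754), Fos, an AP-1 subunit (0.80, adjusted p = 0.00244), Klf10, a TGF-beta-induced zinc finger repressor (0.80, adjusted p = 0.0130), and Dusp6, the phosphatase of ERK (0.77, adjusted p = 0.00498). Klf6, another zinc finger factor, was the remaining rise (0.47, limma adjusted p = 0.0428), named after its value was seen, and Fosl1, an AP-1 subunit, fell by 0.48 (adjusted p = 0.0428). The nuclear receptor genes Nr4a1, Nr4a2 and Nr4a3, also classic immediate early genes, differed between IR and NIR by no more than 0.04. The list was chosen with these results known, so its counts are a description. Fitted on the IR and NIR arrays alone, 2 of the 7 calls held, those of Ccn1 and Fos. The calls of Dusp6, Ier2, Klf10, Klf6 and Fosl1 were lost (limma adjusted p = 0.0613, 0.0625, 0.0736, 0.141 and 0.160).

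Against the parental line fewer immediate early genes passed, where 1.06% of all genes passed for IR minus PA and 1.3% for NIR minus PA. In IR 3 of 30 rose: Ccn1 (0.69, limma adjusted p = 0.00102), Atf3, a stress-induced factor (0.59, adjusted p = 0.0275), and Fos (0.50, adjusted p = 0.0182). In NIR 1 fell, Ccn1 (-1.03, limma adjusted p = 7.25e-05), and 1 rose, Fosl1 (0.51, adjusted p = 0.0365). The median difference was 0.06 in IR and -0.14 in NIR, and these comparisons share the PA arrays. Ccn1 is read by a probe set that can bind related transcripts, and without such probe sets its differences fell short in every comparison (0.36 between IR and NIR, limma adjusted p = 0.134). The Klf6 call was lost whichever array was left out (limma adjusted p up to 0.123, without IR3), Fosl1 between IR and NIR without any but NIR1 (up to 0.119, without IR2), and Fosl1 between NIR and PA without IR1, IR2 or any PA array (up to 0.151, without PA3). Without PA2 the Fos call against PA was lost (limma adjusted p = 0.104), as it was without IR1, IR3 or PA3, and the Atf3 call was lost without PA1 (0.160), PA3 or any IR array. Fitted on the compared groups alone, Atf3 in IR (limma adjusted p = 0.0847) and Fosl1 in NIR (0.0760) did not pass against PA. Other genes fell in NIR against PA when an array was left out: Dusp1, Dusp6 and Klf10 without IR3 (limma adjusted p = 0.0287, 0.0421 and 0.0186), and Klf2 and Klf4 without NIR2 (0.0142 and 0.0203), named after their values were seen. Zfp36, named in the same way, fell short there (-0.36, limma adjusted p = 0.0569). It passed without PA2 (0.0315), with averaged probe sets (0.0435), with a filter on signal (0.0468) and with median centring (0.0434). In IR Zfp36 was also below PA (-0.20, limma adjusted p = 0.507), which is not the order of Egr1. Atf3 went the other way from Egr1 in NIR. It was higher there than in PA (0.37, limma adjusted p = 0.183) and passed without PA2 (0.52, adjusted p = 0.00896).

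The upstream inputs of Egr1 moved in both directions at the RNA level, and 1 passed. Of 21 genes for serum response factor, its partners and the Ras-ERK cascade, 13 were measured and none passed by limma between IR and NIR (6 at an unadjusted p below 0.05, 3 in each direction) or between IR and PA (2, all lower), where 1.65% and 1.06% of all genes passed. Srf itself read 7.25, 7.11 and 7.27 in IR, 6.77, 7.08 and 7.03 in NIR and 7.04 in each PA array. Its IR arrays were above all others, with a difference of 0.25 from NIR (95% interval from 0.06, limma adjusted p = 0.174). Mrtfa, an actin-regulated coactivator of serum response factor, had the widest differences of the list and in the other direction. It read 7.34, 7.19 and 7.40 in IR, 7.58, 8.01 and 7.48 in NIR and 7.18, 7.18 and 7.29 in PA (-0.38 for IR minus NIR, limma adjusted p = 0.139; 0.47 for NIR minus PA, adjusted p = 0.0971). The ERK kinase gene Map2k2 (-0.30, limma adjusted p = 0.200) and the Ras gene Nras (-0.23, adjusted p = 0.179) were also lower in IR than in NIR in every array without passing; these 3 genes were named after their values were seen. Rps6ka3, named in the same way, was higher in IR than in NIR in every array (0.27, limma adjusted p = 0.145), also without passing. The partner gene Elk3 was level, with means of 8.79 in IR and 8.69 in NIR. Map2k1, which encodes the ERK kinase MEK1, fell in NIR against PA by 0.30 (limma adjusted p = 0.0413), a call lost when any array other than IR3 was left out (adjusted p up to 0.165, without PA1) and with the NIR and PA arrays fitted alone (0.0824). For NIR minus PA 1.3% of all genes passed. In IR the Map2k1 level lay between the other groups, above NIR (0.15, limma adjusted p = 0.272) and below PA (-0.15, adjusted p = 0.502). RNA levels do not show the activity of a kinase cascade.

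The NuRD complex, through which Nab2 represses, had no subunit gene that passed on the brightest probe sets. All 13 of its subunit genes averaged above the median probe set, and limma passed none in any comparison, with 5 at an unadjusted p below 0.05 between IR and NIR (1 higher, 4 lower), none for IR minus PA and 3 for NIR minus PA. Of all genes 1.65% passed for IR minus NIR, 1.06% for IR minus PA and 1.3% for NIR minus PA. A count of none among 13 is close to these shares and is no result about the complex. Chd4, the remodeller bound by Nab2, read 7.63, 7.67 and 7.39 in IR and 7.74, 7.86 and 7.74 in NIR (-0.22, limma adjusted p = 0.272). Gatad2a had the widest difference, -0.57 between IR and NIR, just short of the threshold (limma adjusted p = 0.0522), and it passed without NIR3 (adjusted p = 0.0310) and under 3 other settings. Chd4 passed between IR and NIR on another probe set, used when those that can bind several transcripts were left out (-0.64, limma adjusted p = 0.0399). The histone-binding subunit gene Rbbp4, named after its values were seen, passed against PA when the probe sets of a gene were averaged (-0.33 in IR, limma adjusted p = 0.0302; -0.33 in NIR, adjusted p = 0.0297), and 1 of its probe sets passed alone (-1.19 and -0.89). Among factors that share GC-rich sites with Egr1, Sp1, Sp3 and Wt1 did not pass in any comparison, with 1 at an unadjusted p below 0.05 between IR and NIR (Sp1, 0.22, limma adjusted p = 0.294). Wt1 was near background, with group means from 4.01 (IR) to 4.13 (NIR).

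**Figure D3:**
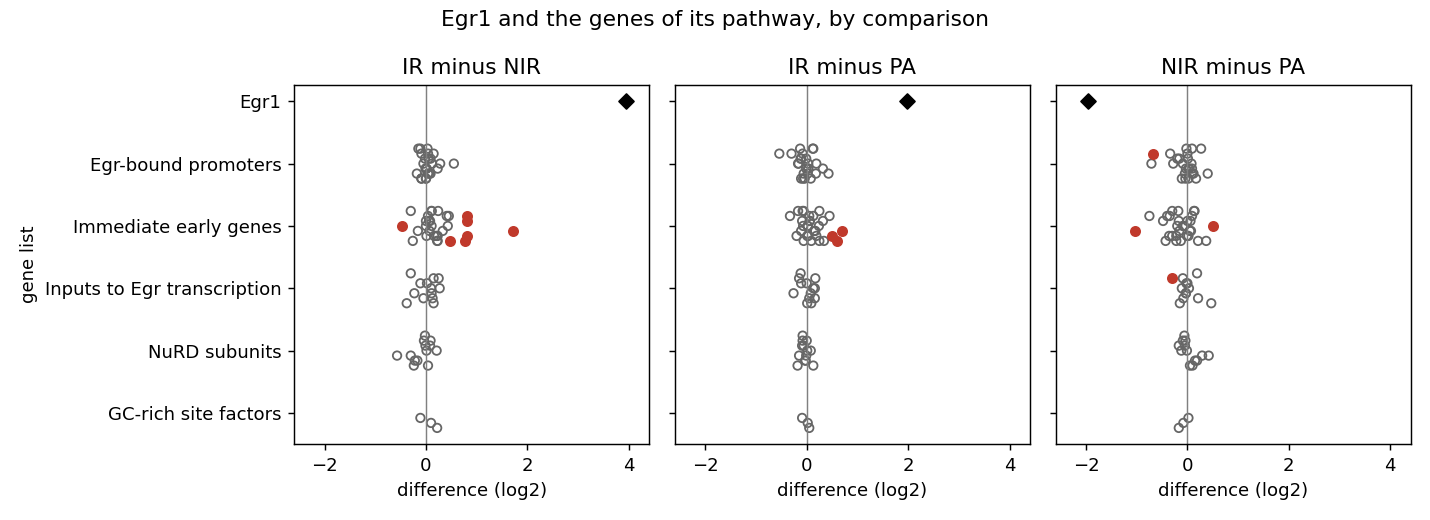
Log2 differences of Egr1 (diamond) and of the measured genes of 5 lists (circles, 1 per gene) in the 3 comparisons, with filled red circles for genes that passed limma's adjusted p of 0.05. Egr1 lies at 3.94, 1.97 and -1.97, the 25 genes with Egr-bound promoters lie between -0.71 and 0.55, and the filled circles are mostly immediate early genes.

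The 5 named genes whose levels followed Egr1 most closely were, apart from Bnip3, on the list of immediate early genes. That list was chosen with results of these data known, so this match is no result about Egr1. Likeness was measured by Pearson's r over the 9 arrays among the 441 genes spanning at least 1 log2 unit. The closest were Fos (r = 0.969), Dusp6 (0.968), Ccn1 (0.959), Ier2 (0.952) and Bnip3 (0.943), a mitophagy receptor induced by hypoxia. Such r values mainly restate the order of the 3 group means and carry no test. Without IR3 and NIR1, the arrays farthest from the Egr1 median, they were 0.899 (Bnip3) to 0.965 (Ccn1). When each array was set against its group mean, the 9 deviations from the group means gave r of 0.63 for Fos, 0.66 for Dusp6, 0.58 for Ier2 and 0.81 for Bnip3, but -0.59 for Ccn1.

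Like Egr1, these genes had PA between NIR and IR. Dusp6 read 9.78, 9.79 and 9.74 in PA and 9.14, 9.41 and 9.49 in NIR, and every IR array lay above these (mean 10.12, with IR2 at 10.09 and IR3 at 10.25). Ier2 read 9.07, 9.05 and 9.43 in IR, 8.64, 8.69 and 8.87 in PA and 8.34, 8.51 and 8.29 in NIR, also without overlap. Fos stayed dim, at 4.95, 4.78 and 4.93 in IR, 4.51, 4.36 and 4.29 in PA and 3.94, 4.16 and 4.15 in NIR. Bnip3 overlapped between IR and PA, with PA3 at 10.26 above IR1 at 10.14 and IR2 at 10.12.

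**Figure D4:**
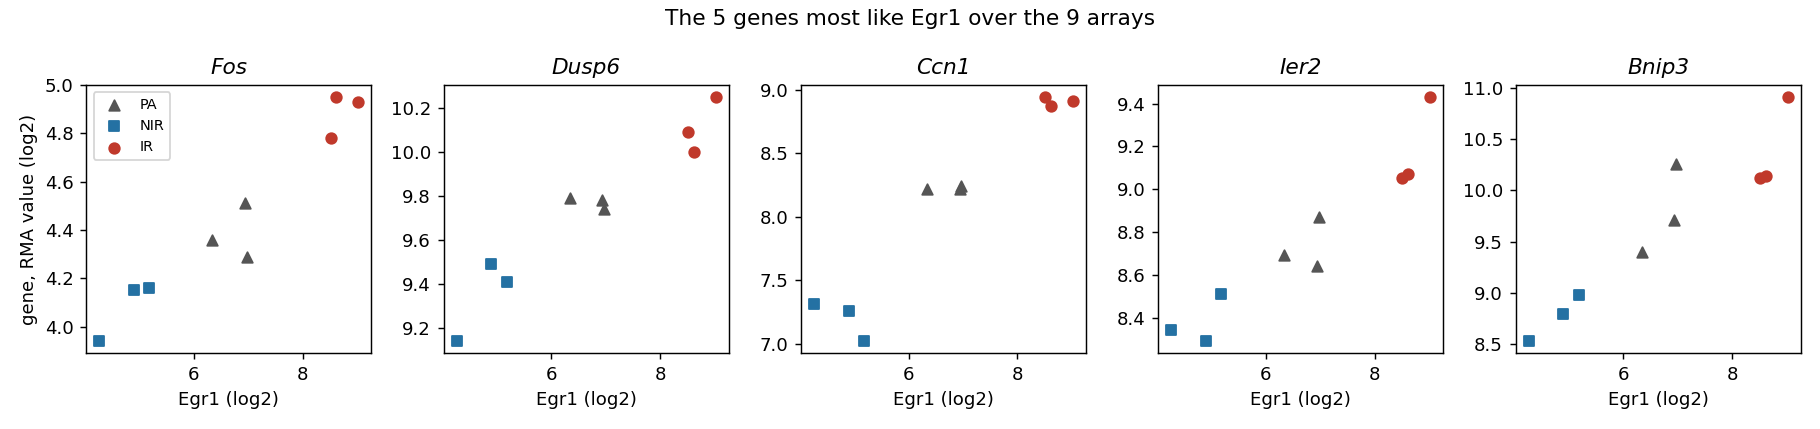
RMA values (log2) of the 5 genes most like Egr1, each plotted against Egr1 over the 9 arrays (triangles PA, squares NIR, circles IR; each vertical axis has its own range). The groups form separate clusters in the order NIR, PA, IR for Fos, Dusp6, Ccn1 and Ier2, and Bnip3 overlaps between PA and IR.

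The nearest patterns to Nab2 were other genes, and they rested on few arrays. These were Cx3cl1, a membrane-bound chemokine (r = 0.862), Lrp1, an endocytic receptor (0.839), Pfkl, a phosphofructokinase (0.768), Ptgfrn (0.762) and Acap1 (0.756). NIR1 was the lowest array for Nab2 and for each of these 5 genes. Without NIR1 the r values were 0.658, 0.633, 0.436, -0.061 and 0.251 in the same order, so the likeness rests largely on that array.

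Markers of the labelled cell type and of host cells were read on the same arrays. Of 8 squamous and epithelial markers 5 averaged above the median probe set. The simple keratins Krt8 and Krt18 were bright, at 12.61 to 12.85 and 11.15 to 12.0. Epcam read 5.81 to 6.22, Krt19 4.76 to 5.06 and the squamous keratin gene Krt5 4.80 to 5.11. The squamous markers Krt14 (3.66 to 4.03) and Trp63 (4.15 to 4.38) and the epithelial gene Cdh1 (3.24 to 3.37) were near background on every array. Macrophages express Egr genes, and the mean of 12 macrophage markers was 4.80 to 5.26 in IR, 4.75 to 4.90 in NIR and 4.54 to 4.68 in PA. It was highest in IR3, the array with the most Egr1, where Lyz2 stood at 8.25 against 5.71 and 5.78 in IR1 and IR2. In IR1 and IR2 this mean was 4.80, within the NIR range, and Egr1 was 8.62 and 8.51 there. The part of macrophage RNA in the Egr1 level was not tested for any array. Of the 12 markers 7 averaged above the median probe set. Besides Lyz2, Cd68 (5.83), Tyrobp (5.39), C1qa (4.64), C1qb (3.79) and Itgam (3.94) were highest in IR3. C1qb and Itgam lay below the median probe set on every array. Adgre1, Fcgr1 and C1qc were highest in IR1 or IR2, and Mrc1, Cd14 and Csf1r in a NIR array. Cd14 read 7.23 to 7.80 and Csf1r 5.50 to 5.91 over all arrays. Mrc1 was 4.86 to 5.41 in IR, 5.29 to 5.57 in NIR and 4.53 to 4.82 in PA, and Cd68 4.71 to 5.83, 4.79 to 5.50 and 4.30 to 4.78. Adgre1, at 3.75 to 4.05, and Itgam, at 3.40 to 3.94, were near background on every array. The mean of 9 fibroblast markers was 7.43 to 7.53 in IR, 7.25 to 7.64 in NIR and 7.06 to 7.21 in PA, and its part in the Egr1 levels was not tested.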

How the data were processed

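Total RNA of 9 SCCVII samples, 3 per group, was biotin-labelled and hybridized to Affymetrix arrays, per the labels' protocols. The deposited values are log2 RMA expression values, and the name RMA comes per the submitters' processing notes, its version and settings being not given in the sources used here; they run from 2.47 to 14.01 and were used without further scaling. RMA summarises the probes of a set after quantile normalization, which sets arrays to a common distribution and so hides a change shared by most genes, and it compresses differences near background.

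Of 45100 probe sets, 64 were controls and 34944 had a single gene symbol, which was updated through Entrez Gene against RefSeq for 34740. The brightest probe set stood for each of 18193 genes. All 9 arrays entered 1 linear model with a mean per group (limma 3.58.1, R 4.3.3, moderated by eBayes, 2-sided, 6 residual and 5.48 prior degrees of freedom), with Benjamini-Hochberg adjustment over all genes and a threshold of 0.05. Each member's probe sets were also fitted in a test of every single-gene probe set. The procedure was tested on simulated data. Figures used matplotlib 3.10.9 in Python 3.11.15. Precision is set by the number of arrays, as intensities carry no read depth.

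The members and gene lists were chosen with earlier results of these data known. The text names the members, up to 6 called and 2 other genes of each list and comparison, the 5 genes most like Egr1 and Nab2 in pattern, leaving out transcripts without a gene name, and the gene next to Egr1 in size. Genes of the lists with no single-gene probe set named here, 4 of the target genes and 8 of the inputs, were not analysed here. Alternatives were another choice of probe sets, a filter on signal, 2 normalizations, another variance model, a fit of the compared groups alone, a replicate block, a threshold of 0.01 and leaving out each array.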

Additional observations from a re-analysis of the deposited data

How the results depend on the processing

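Under the alternatives run, Egr1 kept its direction in each comparison, from 3.68 to 4.14 between IR and NIR, 1.76 to 2.08 between IR and PA and -2.18 to -1.71 between NIR and PA. Egr2, Egr3, Egr4, Nab1 and Nab2 were called in neither comparison with PA under any setting. Signs near 0 turned. Egr3 in IR against PA was -0.008 with the mean of its probe sets and -0.104 with its dim probe set, in NIR against PA 0.002 after a second quantile normalization, and Nab1 in IR against PA 0.025 with its dim probe set. Without single arrays, IR minus PA ran from -0.205 to 0.02 for Egr4, -0.085 to 0.004 for Nab1 and -0.01 to 0.097 for Nab2, and NIR minus PA from -0.034 to 0.012 for Egr3, -0.058 to 0.089 for Nab1 and -0.215 to 0.075 for Nab2. Other probe sets turned the sign of Rps6ka3 between IR and NIR (-0.065 and -0.151, against 0.27 on the brightest) and of Gatad2a (0.006). Genes called between IR and NIR numbered 300, but 11 with a fit of those groups alone, 41 at an adjusted p below 0.01 and 77 to 271 without single arrays, 77 being without IR1. Between IR and PA 192 were called, 100 at 0.01 and 99 to 214 without single arrays, and between NIR and PA 236, 108 at 0.01 and 121 to 370. Same-numbered arrays did not deviate together (correlations from -0.201 to 0.097, against -0.123 to 0.251 for arrays of different number). With so few arrays behind each group mean, these correlations cannot decide whether the numbers pair the samples. With the replicate block 230, 164 and 203 genes were called. Under that block Hpse gained a call in NIR against PA (limma adjusted p = 0.0162), and calls were lost for Fos and Atf3 in IR against PA (0.0546 each), Klf6 (0.0509) and Fosl1 (0.0661) between IR and NIR, and Fosl1 (0.0648) and Map2k1 (0.0924) in NIR against PA. The cause of these changes was not tested.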
